A study of Arabidopsis thaliana with 44 samples.

Results

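Heat shock protein genes and the gene of the heat shock factor HSFA2 were followed in shoot apices of Arabidopsis thaliana seedlings. The 10 genes were chosen by their locus identifiers: HSFA2 (AT2G26150), HSP101 (AT1G74310), HSP70 (AT3G12580), HSP90.1 (AT5G52640), HSP18.2 (AT5G59720), HSP17.4 (AT3G46230), the neighbours HSP17.6 (AT5G12020) and HSP17.6A (AT5G12030), HSP22 (AT4G10250) and HSP21 (AT4G27670). All 10 were found among the 29696 genes of the deposited table, and 5 of them passed the filter on low counts. The study asked how ARGONAUTE proteins, which bind small RNAs, act in the shoot apical meristem.

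All plants were of the Col-0 ecotype and were raised on soil without a stated heat treatment, in cycles of 16 h light and 8 h dark, and the apices were collected at day 7 after germination. With 4 libraries each there were single mutants (ago4, ago5, ago9), combinations (ago4ago9, ago5ago9, ago4ago5ago9) and ddm1, which lacks a chromatin remodeller. The 2 wild types, labelled wt21 and wt col-0, had 8 libraries each. The labels name no alleles, leave the meaning of wt21 unexplained and do not say whether replicates came from separate plants or pools, so p-values measure the spread between libraries, which may be technical. The wild-type libraries numbered 5 to 8 stood apart from those numbered 1 to 4 (1738 of 17557 features differed between these sets in wt col-0) and are kept apart, which gives 11 sets of 4 libraries. Of the 44 libraries, each held between 4474807 and 10620084 counts. The wild-type libraries 5 to 8 held at least 7529636 and the wild-type libraries 1 to 4 at most 6577648.

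The labels were checked on the targeted genes. DDM1 averaged 0.379 CPM (counts scaled to a common library total) in ddm1, against 11.9 CPM in wt col-0 replicates 1 to 4, and AGO4 averaged 0.538 CPM in ago4 and 24.2 CPM in those wild-type libraries. AGO4 averaged 21.6 CPM in the libraries labelled ago4ago5ago9, against their label. Of the libraries labelled ago9, replicates 1 and 2 had 1 and 0 AGO4 counts and replicates 3 and 4 had 97 and 109. Directions given for these 2 groups are for libraries so labelled. As a check of the tissue, 10 shoot meristem markers summed to between 22.9 and 39.6 CPM in every library, although WUS was at 0 in several sets. Of these 10, 4 passed the filter on low counts. The 8 root markers summed to at most 1.92 CPM, with IRT1, EXPA7 and EXPA18 at 0 throughout. The 9 leaf photosynthesis markers summed to between 51237 and 191680 CPM. The check does not show how much of the RNA came from the meristem.

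Heat shock proteins are molecular chaperones. In plants, heat activates resident class A1 heat shock factors, which switch on chaperone genes and HSFA2, a further factor that prolongs the response. The factors bind heat shock elements, inverted repeats of the unit GAA, in the upstream region of their targets. HSP101 pulls proteins out of aggregates, HSP70 and HSP90 fold and hold client proteins, and the small heat shock proteins hold unfolded proteins in solution. HSP17.4 and HSP18.2 are cytosolic class I small heat shock proteins, the HSP17.6 pair is of cytosolic class II, HSP22 resides in the endoplasmic reticulum and HSP21 in the chloroplast. Most of these genes are known for very low RNA levels without heat.

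The heat shock elements near these genes are shown because they are the DNA feature that links the family. Each line gives 29 bases of RefSeq's TAIR10.1 assembly, 5′ to 3′ on the gene's strand, and capitals mark 3 consecutive units, read as GAA, TTC and GAA or as TTC, GAA and TTC with any 2 bases between neighbouring units.

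HSFA2 (chr2:11135528-11135556, plus strand): ttagtaacGAAGTTTCTGGAAcattgtct
HSP70 (chr3:3993846-3993874, minus strand): ttactcgtGAACGTTCTCGAAagctcttt
HSP17.4 (chr3:16984865-16984893, minus strand): agaaacctGAAATTTCAAGAAacttgcag
HSP17.4 (chr3:16984946-16984974, minus strand): tcaacataGAAGCTTCTTGAAgccacctg
HSP22 (chr4:6370379-6370407, plus strand): aaagatatTTCAAGAAACTTCttcattct
HSP18.2 (chr5:24062388-24062416, plus strand): caacaaacGAAACTTCCTGAAatgccaag

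The element began 88 bases before the annotated gene start in HSFA2, and 18 and 99 bases before it in HSP17.4. In HSP70, HSP22 and HSP18.2 it lay within the annotated 5′ leader. The 2 orders of units are each other's reverse complement, so that a search for both reads both strands. In the 250 bases before the gene start, 2 of the 10 genes held a 3-unit element, as did 0.386% of 27443 protein-coding genes, with 0.175% holding the order that starts with GAA and 0.226% the order that starts with TTC. In the 250 bases before the start codon, 4 of the 10 genes held one (HSP70, HSP17.4, HSP18.2 and HSP22), against 0.627% of all genes. The looser 2-unit elements GAANNTTC and TTCNNGAA, which overlap every 3-unit element, were in the start codon window of 8 of the 10 genes and of 19.5% of all genes. The windows of HSP101 and HSP90.1 held neither, which says only that these letters are not there. For HSP90.1, the 250 bases before the annotated gene start end in an ATG and a few further bases. They may therefore hold leader and coding sequence, so its upstream region may not have been searched in full.

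The gene models differ in shape. HSP101 has 5 introns, HSP90.1 has 3, HSFA2 has 2, HSP70 and HSP21 have 1 each, and HSP17.4, HSP18.2, HSP17.6, HSP17.6A and HSP22 have 0. HSP17.6 (chr5:3882231-3883111) and HSP17.6A (chr5:3883957-3884838) lie 845 bases apart on the minus strand with 0 genes between them, and their coding sequences are 86.1% identical. HSP17.4 and HSP18.2 are 77.0% identical, and every other pair of the 6 small heat shock protein genes has an identity between 39.4% and 55.3%. How reads shared between such copies were assigned is not given in the sources used here. None of the 10 genes had a fractional value in any library (0 values).

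In wild type, the genes fell into 3 levels. Per kilobase of transcript, the mean over the 16 wild-type libraries was 2.31 CPM for HSP70, 1.72 for HSP90.1, 1.49 for HSP101 and 1.34 for HSP18.2. Division by annotated length assumes a complete gene model and reads spread along the transcript, neither of which was checked. The HSP90.1 model of 2103 bases may be incomplete, since an ATG lies just before its annotated start. Its value per kilobase and its place among these 4 genes are therefore less certain. HSFA2 was lower, with 0.485 CPM per kilobase, though these means pool the replicate sets. Without division by length, HSFA2 averaged 0.460 CPM in wt21 replicates 5 to 8 and 1.62 CPM in wt col-0 replicates 5 to 8. HSP17.6, HSP17.6A and HSP17.4 had 0.105, 0.0903 and 0.0540 CPM per kilobase, and HSP22 and HSP21 had 0 counts in wild type. These are few reads: over all 44 libraries HSP70 had 1879 counts and HSFA2 had 309, and a count of 0 in 1 library allows up to 3 counts, between 0.222 and 0.711 CPM by library. Such limits cover counting error only. In bulk RNA, fewer cells of a type and less RNA per cell cannot be told apart.

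In ddm1, the chaperone genes HSP70 and HSP90.1 rose, while HSFA2, HSP101 and HSP18.2 did not pass the test against wt col-0 replicates 1 to 4. The heat-inducible cytosolic HSP70 gene had 10.1, 9.72, 14.3 and 17.56 CPM in ddm1, against 7.86, 5.24, 2.94 and 6.16 CPM in wt col-0 replicates 1 to 4. All 4 ddm1 libraries lay above all 4 wild-type libraries. Its mean was 12.9 ± 3.71 CPM in ddm1, against 5.55 ± 2.05 CPM in wt col-0 (SD, n = 4 each), and the log2 fold change was 1.23 ± 0.36 (SE; adjusted p = 0.0105, edgeR quasi-likelihood test).

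HSP90.1, the heat-inducible cytosolic HSP90, had 7.49, 5.24, 6.54 and 9.25 CPM in ddm1, against 4.41, 2.98, 3.87 and 3.08 CPM in wt col-0 replicates 1 to 4. These groups did not overlap either. Here and below, the share of all features whose groups do not overlap is not given, so non-overlap is a description only. The means were 7.13 ± 1.69 CPM in ddm1, against 3.58 ± 0.679 CPM in the wild type, a log2 fold change of 0.99 ± 0.34 (adjusted p = 0.0317, edgeR). The 2 called genes of the 5 tested, both higher, stand beside a background of 11.2% of all 17557 tested features called higher, 7.8% called lower and 19.0% called in all in ddm1.

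Across the whole series, the lowest ddm1 library for HSP70 (9.72 CPM) exceeded the highest of the 40 other libraries (8.37 CPM, wt col-0 replicate 5). For HSP90.1, 2 of the 40 other libraries reached the lowest ddm1 value of 5.24 CPM, the highest being ago9 replicate 4 with 5.51 CPM. Against the deeper wt col-0 replicates 5 to 8, the log2 fold change was 0.99 for HSP70 (adjusted p = 0.0379, edgeR) and 1.01 for HSP90.1 (adjusted p = 0.0231), with 8.83% of all features called higher. With controls chosen after seeing the data, it was 1.80 and 1.38 for these genes against the mean of the 6 ago groups (15.0% called higher), and 1.18 and 0.98 against all 16 wild-type libraries (11.5% called higher), with adjusted p of at most 2.22e-03 in both. Both calls rest partly on single libraries. Without ddm1 replicate 4, the highest for both genes, the adjusted p was 0.0597 for HSP70 and 0.125 for HSP90.1, and for HSP90.1 it was 0.0832 without wt col-0 replicate 2 and 0.0689 without wt col-0 replicate 4.

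The factor gene HSFA2 had 2.35, 2.16, 0.667 and 1.37 CPM in ddm1, against 0.575, 0.425, 0.619 and 1.99 CPM in wt col-0 replicates 1 to 4. The groups overlap, and the log2 fold change of 0.89 ± 0.68 did not pass the test (adjusted p = 0.413, edgeR). The disaggregase gene HSP101 had 5.58, 6.09, 4.54 and 4.88 CPM in ddm1 and 3.83, 3.83, 4.96 and 9.60 CPM in those wild-type libraries. Wild-type replicate 4 was above every ddm1 library and replicates 1 and 2 were below every one, and the log2 fold change was -0.06 ± 0.27 (adjusted p = 0.913). HSP18.2, a class I small heat shock protein gene, had 1.47, 2.08, 0.800 and 2.91 CPM in ddm1, against 0.192, 0.709, 2.17 and 1.63 CPM in wt col-0, overlapping, with a log2 fold change of 0.65 ± 0.43 (adjusted p = 0.329).

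**Figure D1:**
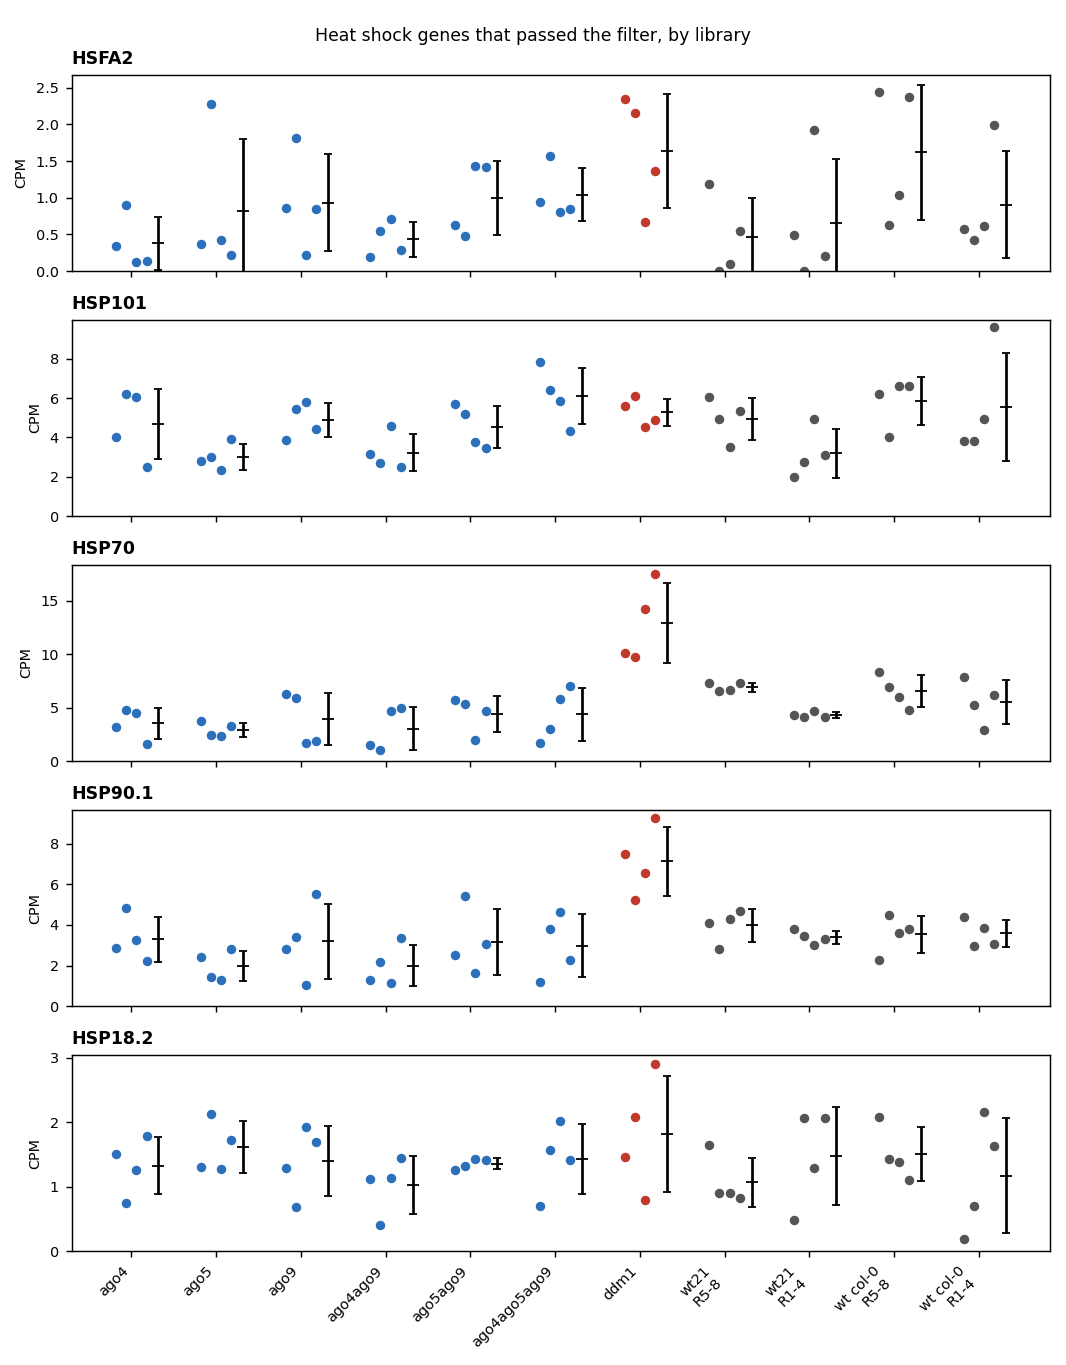
CPM (vertical axes, each gene on its own scale from 0) of the 5 genes that passed the filter in each of the 44 libraries, by set (horizontal axis; R1-4 and R5-8 are the wild-type replicate sets); points are libraries in order of replicate number, red for ddm1, blue for ago groups and grey for wild types, and the bar beside them is the mean ± SD, which runs below 0 and is clipped for some sets of HSFA2. The ddm1 points stand above every other set for HSP70, from 9.72 to 17.56 CPM, and lie among the other sets for HSP101.

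Below the filter, the small heat shock protein genes are described by their counts. HSP22 had 5, 3, 2 and 3 counts in the 4 ddm1 libraries and 0 in each of the other 40 libraries. The ddm1 libraries held a count for more features in general, 21773 to 22452, against 18870 to 20195 in the others. The share of all features counted only in ddm1 is not given here. Taken over groups and scaled to depth, the 13 counts in ddm1 were 2.70 times a floor of 3 counts in wt col-0 replicates 1 to 4. They were 31.2 times that floor in the 40 other libraries. These ratios leave out the counting error of the 13 counts, so they are not lower bounds. Each single ddm1 count is near the floor. With no filter on low counts, the edgeR test against wt col-0 replicates 1 to 4 gave an adjusted p of 0.0559. That test called 2659 of 28967 features higher in ddm1.

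HSP17.6A had 6, 6, 4 and 9 counts in ddm1, against 0, 1, 0 and 1 in wt col-0 replicates 1 to 4. The groups did not overlap. Scaled to depth, 25 counts in ddm1 and 2 in wt col-0 replicates 1 to 4 gave a ratio of 7.78 (95% counting interval 1.94 to 67.8), and 10 counts in the 16 wild-type libraries gave 8.48 (3.93 to 19.8). The test without a filter gave a log2 fold change of 2.79 and an adjusted p of 0.0813 (edgeR), which misses the threshold. The libraries labelled ago4ago5ago9 were close behind, with 5, 5, 2 and 2 counts of HSP17.6A. Their mean was 0.585 CPM, against 0.662 CPM in ddm1. They did not overlap wt col-0 replicates 1 to 4 either, with 0.188 to 1.19 CPM against at most 0.181 CPM. The log2 fold change was 2.51 (adjusted p = 0.586, edgeR without a filter). Replicate 1 of that label, at 1.19 CPM, lay above every ddm1 library, the highest of which had 0.881 CPM.

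Its neighbour HSP17.6 had 0, 4, 5 and 1 counts in ddm1, against 0, 0, 0 and 1 in wt col-0 replicates 1 to 4 (adjusted p = 0.341, edgeR without a filter). By mean level it was highest in libraries labelled ago4ago5ago9, with 0, 3, 4 and 3 counts. HSP17.4 had 0, 6, 2 and 1 counts in ddm1 and 2, 1, 0 and 0 in wt col-0 (adjusted p = 0.809), so those groups overlap. HSP21, the chloroplast member, had 0 counts in all 44 libraries, which allows up to 0.00940 CPM over the pooled series. The 5 genes below the filter held 57 counts in the 4 ddm1 libraries and 83 in the 40 others.

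**Figure D2:**
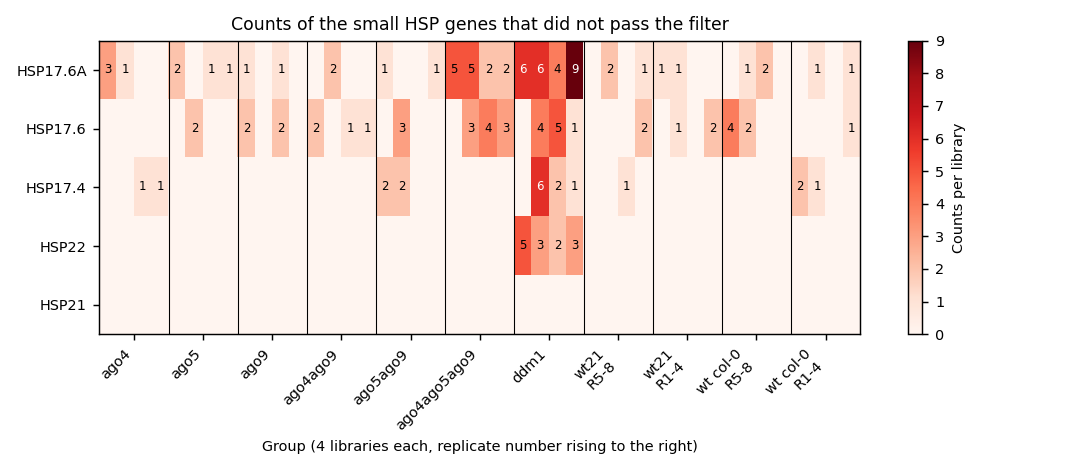
Counts per library (colour and printed number; empty cells are 0) of the 5 small heat shock protein genes below the filter, with the 44 libraries along the horizontal axis grouped into 11 sets. HSP22 has counts of 5, 3, 2 and 3 in ddm1 and 0 elsewhere, and HSP21 is at 0 throughout.

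Leaf photosynthesis markers moved with the ddm1 result. The summed level of 9 such markers was 51237 to 78737 CPM in ddm1 and 117893 to 135016 CPM in wt col-0 replicates 1 to 4. Of the 9, 8 were called lower in ddm1, beside 7.8% of all features called lower. The part of this shift in the heat shock results was not tested as such. The wild-type libraries wt col-0 replicates 5 to 8, where these markers summed to 67993 to 93954 CPM, gave the values for HSP70 and HSP90.1 printed above. The 10 shoot meristem markers summed to 31.0 to 39.4 CPM in ddm1 and 28.1 to 35.6 CPM in wt col-0 replicates 1 to 4.

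The ago groups gave no call. Against wt col-0 replicates 1 to 4, the 5 tested genes in 6 ago groups made 30 comparisons, of which 0 were called by edgeR, 0 by DESeq2 and 0 by limma voom, with 6 at an unadjusted edgeR p under 0.05. The lowest adjusted p was 0.391. Few features of any kind were called there: the share was 0.319% for ago4, 0.0171% for ago5, 0.0114% for ago9, 0.211% for ago4ago9, 0.131% for ago5ago9 and 0.0114% for the libraries labelled ago4ago5ago9. Of the 30 log2 fold changes, 20 were below 0, and they ran from -1.24 to 0.46. All 6 comparisons share the same 4 wild-type libraries.

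HSP70 had log2 fold changes below 0 in all 6 ago groups, and so had HSP90.1. The wild type wt21 replicates 1 to 4, set against the same libraries, lay below 0 too for 4 of the 5 tested genes and above it for 1. HSP70 averaged 4.32 CPM there and 5.55 CPM in wt col-0 replicates 1 to 4, and HSP90.1 averaged 3.39 and 3.58 CPM. In ago5, HSP70 had 3.74, 2.42, 2.35 and 3.25 CPM, against 7.86, 5.24, 2.94 and 6.16 CPM in wt col-0 replicates 1 to 4, a log2 fold change of -0.91 ± 0.42 (adjusted p = 0.656, edgeR). HSP90.1 in ago5 had 2.43, 1.42, 1.28 and 2.82 CPM, against 4.41, 2.98, 3.87 and 3.08 CPM, so all 4 ago5 libraries lay below all 4 wild-type libraries, with a log2 fold change of -0.86 ± 0.40 (adjusted p = 0.656). Neither passed the test.

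In ago4ago9, HSP70 was uneven, with 1.49, 1.09, 4.70 and 4.95 CPM, and its log2 fold change was -0.83 ± 0.40 (adjusted p = 0.543, edgeR). In ago9, HSP70 had 6.24 and 5.90 CPM in replicates 1 and 2, which lacked AGO4 RNA, and 1.71 and 1.91 CPM in replicates 3 and 4. No test was made between libraries of 1 group. In ago4 and ago4ago9, where AGO4 averaged 0.538 and 0.393 CPM, HSP70 averaged 3.55 and 3.06 CPM. In libraries labelled ago4ago5ago9, HSP70 had 1.66, 3.03, 5.86 and 7.06 CPM, a spread that covers 3 of the 4 values of wt col-0 replicates 1 to 4.

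HSP101 was lowest in ago5, with 2.81, 2.99, 2.35 and 3.90 CPM, and had 3.16, 2.72, 4.56 and 2.47 CPM in ago4ago9. Against wt col-0 replicates 1 to 4 its log2 fold changes were -0.87 ± 0.30 in ago5 (adjusted p = 0.628, edgeR) and -0.77 ± 0.29 in ago4ago9 (adjusted p = 0.391). Against wt col-0 replicates 5 to 8, with 6.19, 4.05, 6.59 and 6.60 CPM, both passed the test, at -0.96 in ago5 (adjusted p = 0.0283; 4.61% of all features called lower) and -0.85 in ago4ago9 (adjusted p = 0.0386; 5.51% called lower), so the call turns on which wild-type set is the control. HSFA2 ranged from 0.126 to 2.28 CPM over the 24 ago libraries, and its lowest set was ago4, with 0.336, 0.907, 0.126 and 0.138 CPM. HSP18.2 ran from 0.408 to 2.14 CPM over those libraries, among the wild-type values of 0.192 to 2.17 CPM.

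**Figure D3:**
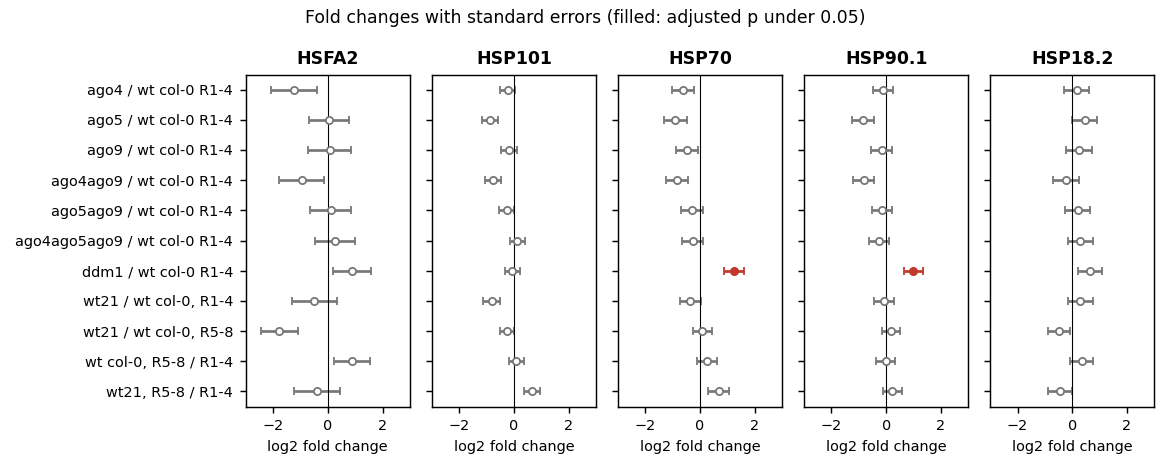
Log2 fold changes (horizontal axes) with standard errors of the 5 genes that passed the filter in 11 comparisons (rows, the group before the slash over the group after it); filled red points have an adjusted p under 0.05. HSP70 at 1.23 and HSP90.1 at 0.99 in ddm1 are the filled points. Both genes lie left of 0 in the 6 ago rows and in the row of wt21 over wt col-0 in R1-4.

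The wild types were compared in the same way. Between wt21 and wt col-0, 0 of the 5 tested genes were called in replicates 1 to 4 (0.0% of all features called) and 0 in replicates 5 to 8 (0.615% called), with 1 gene in each at an unadjusted edgeR p under 0.05 and 0 calls by DESeq2 or limma voom. HSFA2 had 1.19, 0, 0.1003 and 0.553 CPM in wt21 replicates 5 to 8, against 2.44, 0.629, 1.04 and 2.37 CPM in wt col-0 replicates 5 to 8. Of that wt21 set, only replicate 5 lay above any of these wt col-0 libraries, and the log2 fold change was -1.76 ± 0.67 (adjusted p = 0.324, edgeR). HSP101 had 1.98, 2.76, 4.93 and 3.10 CPM in wt21 replicates 1 to 4, against 3.83, 3.83, 4.96 and 9.60 CPM in wt col-0 replicates 1 to 4, a log2 fold change of -0.81 ± 0.30 that did not pass either.

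Between replicate sets of 1 wild type, 0 of 5 genes were called in wt col-0 (9.9% of all features called; 0 genes at an unadjusted p under 0.05) and 0 of 5 in wt21 (4.16% called; 1 gene at an unadjusted p under 0.05), and DESeq2 and limma voom made 0 calls. HSP70 had 7.31, 6.52, 6.62 and 7.28 CPM in wt21 replicates 5 to 8, against 4.28, 4.13, 4.72 and 4.14 CPM in wt21 replicates 1 to 4. These sets did not overlap, and were the most even of all for this gene. The log2 fold change was 0.68 ± 0.38 with an adjusted p of 0.339 in the fit over all 44 libraries, and the adjusted p was 0.0417 in a fit of the wt21 libraries alone, where 4.02% of all features were called higher. The difference between the 2 wild types in this set contrast was called for 0 of 5 genes (0.0342% of all features called; 0 genes at an unadjusted p under 0.05; 0 calls by the other tools).

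Ordered by their means over the 11 sets, most neighbours did not differ beyond their spread. For HSP70 the order began with ddm1 at 12.9 CPM and wt21 replicates 5 to 8 at 6.93 CPM and ended with ago5 at 2.94 CPM. For HSP90.1 it began with ddm1 at 7.13 CPM and wt21 replicates 5 to 8 at 3.98 CPM and ended with ago5 at 1.99 CPM. Of the 10 neighbouring pairs of sets in each order, only the first, ddm1 and wt21 replicates 5 to 8, had a gap over the larger SD and ranges that did not overlap. HSFA2 averaged 1.64 CPM in ddm1, against 1.62 CPM in wt col-0 replicates 5 to 8, HSP18.2 averaged 1.82 CPM in ddm1 and 1.62 CPM in ago5, and in both orders 0 of 10 neighbouring pairs were apart. HSP101 was highest in libraries labelled ago4ago5ago9 at 6.10 CPM and in wt col-0 replicates 5 to 8 at 5.86 CPM.

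Over the 44 libraries HSP70 and HSP90.1 were the most correlated pair of the 5 tested genes. Their log2 CPM values had a Pearson correlation of 0.682 over 44 libraries, 0.545 over the 40 libraries without ddm1, and 0.396 within sets. HSFA2 and HSP101 had 0.482 over 44 libraries and 0.398 within sets, and the 8 other pairs lay between 0.0410 and 0.328. The 2 values of a point share a library and its depth, so these are descriptions. By correlation over the 44 libraries with the mean of the 5 genes' standardised log2 CPM, the 5 most alike features were AT4G23680 at 0.716, the prohibitin gene PHB2 at 0.674, AT4G23620 at 0.669, the co-chaperonin gene CPN10 at 0.666 and AT3G02650 at 0.661. Without ddm1 these values were 0.558, 0.475, 0.514, 0.416 and 0.532.

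**Figure D4:**
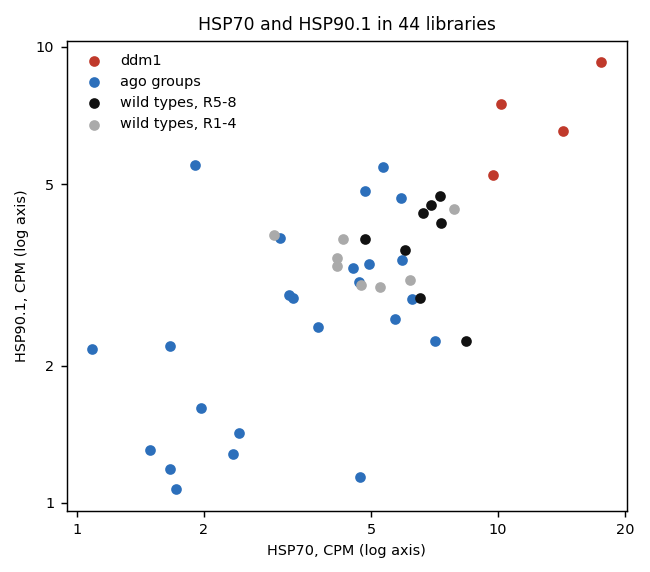
HSP90.1 (vertical, CPM, log axis) against HSP70 (horizontal, CPM, log axis), 1 point per library, in 44 libraries, coloured by ddm1, ago groups and the wild-type replicate sets. The 4 ddm1 libraries lie at the upper right, at HSP70 levels of 9.72 CPM and more, and libraries of ago groups fill the lower left.

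Other chaperone and heat-response genes were counted from 5 lists of 65 genes, of which 49 were tested. In ddm1, 11 rose and 2 fell against wt col-0 replicates 1 to 4, beside the background of 11.2% called higher and 7.8% called lower. Of the 11 other HSP70 genes, 4 of 11 tested rose: HSC70-2, mtHSC70-1, mtHSC70-2 and HSP70-14. Of the HSP90 and HSP100 genes, 3 of 7 rose, the cytosolic HSP90.2, HSP90.3 and HSP90.4, and of the small heat shock protein genes 1 of 6 tested rose, HSP23.5-M, whose product is mitochondrial. Among co-chaperones and other heat-response genes 3 of 13 tested rose, ROF1, HSBP and ATJ2. Of the 12 heat shock factor genes tested, 2 were called, and both fell: HSFB2A and HSFB2B, class B factors that act as repressors.

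HSC70-2, a cytosolic HSP70 gene beside HSC70-1, had 64.9 to 95.6 CPM in ddm1 and 15.8 to 23.2 CPM in wt col-0 replicates 1 to 4. Its means of 78.4 ± 14.8 CPM in ddm1, against 18.3 ± 3.39 CPM in the wild type, gave a log2 fold change of 2.11 ± 0.18 (adjusted p = 1.52e-12, edgeR), and it was 1.55 against wt col-0 replicates 5 to 8. HSP23.5-M averaged 4.56 ± 1.20 CPM in ddm1, against 1.01 ± 0.824 CPM in the wild type, without overlap, a log2 fold change of 2.21 ± 0.49 (adjusted p = 7.43e-04). These 2 were the largest changes among the 11 that rose.

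The mitochondrial HSP70 genes changed less. The mtHSC70-1 gene averaged 97.6 ± 4.08 CPM in ddm1, against 67.0 ± 2.20 CPM in the wild type, a log2 fold change of 0.54 (adjusted p = 1.28e-05, edgeR), and mtHSC70-2 averaged 70.8 ± 8.35 CPM in ddm1, against 41.9 ± 1.93 CPM in the wild type, a log2 fold change of 0.76 (adjusted p = 6.74e-05). The second has fractional counts in all 44 libraries, so its share is uncertain. ROF1, an FKBP-type co-chaperone of HSP90, averaged 68.8 ± 6.85 CPM in ddm1, against 49.2 ± 5.92 CPM in the wild type, a log2 fold change of 0.49 (adjusted p = 3.05e-04).

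HSP90.2, HSP90.3 and HSP90.4 had log2 fold changes of 0.63, 0.73 and 0.53 in ddm1, but they are near-identical neighbours with fractional counts in at least 43 libraries each, so the share of each is uncertain. With wt col-0 replicates 5 to 8 as the control these 3 missed the threshold (adjusted p = 0.140, 0.0554 and 0.133, edgeR). HSFB2A averaged 1.59 ± 0.183 CPM in ddm1, against 3.66 ± 1.41 CPM in wild-type replicates 1 to 4 (log2 fold change -1.17, adjusted p = 0.0115), and HSFB2B averaged 5.72 ± 1.51 CPM in ddm1, against 9.08 ± 0.462 CPM in the wild type (log2 fold change -0.69, adjusted p = 0.0148). HSFB2A has a known antisense RNA, and with the use of strand not stated the reads of both cannot be told apart. HSFB2B and HSP70-14 have fractional counts in 41 and 17 libraries, so their shares are uncertain. The log2 fold change of HSFB2A was 0.29 with wt21 replicates 1 to 4 as the control (adjusted p = 0.688, edgeR). It missed the threshold under 6 of 21 alternatives, of which 1 left out wt col-0 replicate 4, and HSFB2B missed it under 4 of 21, among them without ddm1 replicate 4 and with wt21 replicates 1 to 4 as the control (log2 fold change -0.35, adjusted p = 0.286). ATJ2, called at a log2 fold change of 0.42, missed the threshold under 5 of 21 alternatives, among them without ddm1 replicate 3, ddm1 replicate 4 or wt col-0 replicate 3, and HSBP, called at 0.52, under 2 of 21. With wt col-0 replicates 5 to 8 as the control they had 0.11 (adjusted p = 0.683) and 0.17 (adjusted p = 0.515, edgeR). HSP70-14, called at 0.30, missed the threshold under 11 of 21 alternatives, among them without ddm1 replicate 1, 3 or 4 or wt col-0 replicate 4, and its log2 fold change was -0.17 with wt col-0 replicates 5 to 8 as the control. With that control the whole count was 6 higher and 3 lower, and leaving out single libraries it was 9 to 13 higher and 1 to 2 lower. Genes named here beyond HSC70-2, mtHSC70-1, mtHSC70-2 and ROF1 were named after their values were seen.

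**Figure D5:**
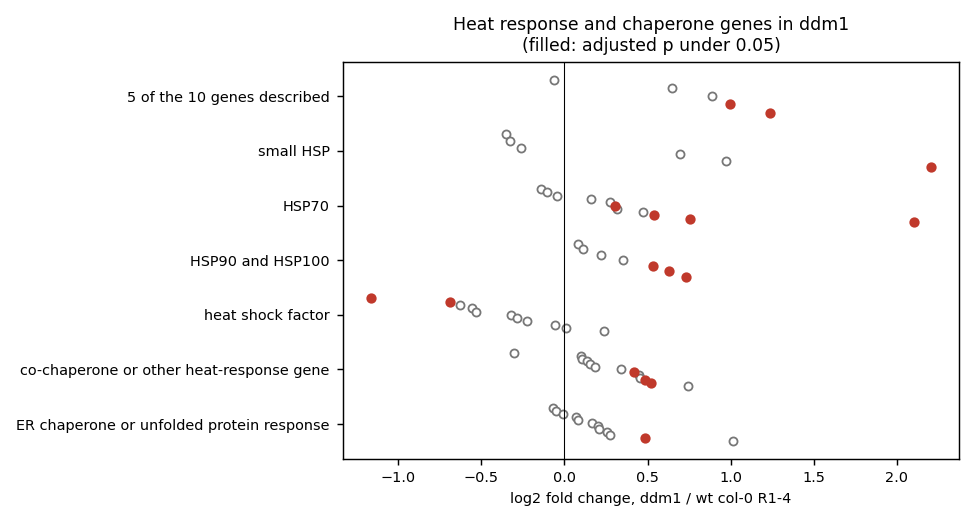
Log2 fold changes in ddm1 over wt col-0 replicates 1 to 4 (horizontal axis) of the tested genes of each list (rows; vertical position within a row is by rank only); filled red points have an adjusted p under 0.05. HSFB1, listed at 0 in all 4 of the wild-type libraries and in 3 of the 4 ddm1 libraries, is not drawn. HSC70-2 at 2.11 and HSP23.5-M at 2.21 lie farthest to the right, and HSFB2A at -1.17 farthest to the left.

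The unfolded protein response of the endoplasmic reticulum, a separate chaperone system, was counted from a list of 13 genes. Of the 12 tested, 1 rose in ddm1, beside 11.2% of all features called higher: PDIL1-1, a protein disulfide isomerase gene, with a log2 fold change of 0.49 (adjusted p = 5.27e-04, edgeR). With wt col-0 replicates 5 to 8 as the control it was 0.16 (adjusted p = 0.359), and between those wild-type libraries and replicates 1 to 4 PDIL1-1 was called too, at 0.32 (adjusted p = 0.0414). In the 6 ago groups the 5 heat lists gave 0 calls in 294 comparisons by edgeR and 0 by limma voom, with 37 at an unadjusted edgeR p under 0.05. DESeq2 called 3, all lower: HSC70-3 in ago4 (log2 fold change -0.60) and in ago5ago9 (-0.76), and HSP90.6 in ago4 (-0.49).

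Between the wild-type replicate sets, 3 of 11 tested HSP70 genes of the lists were called in wt col-0 (HSP70-14, HSC70-3 and HSC70-2) and 2 of 11 in wt21 (HSC70-3 and HSC70-2), all higher in replicates 5 to 8. HSP70-14 averaged 67.8 ± 2.24 CPM in wt col-0 replicates 5 to 8 and 48.6 ± 2.73 CPM in replicates 1 to 4 (adjusted p = 1.14e-03, edgeR). HSC70-3 averaged 224 ± 18.9 CPM in wt col-0 replicates 5 to 8 and 150 ± 34.1 CPM in replicates 1 to 4 (adjusted p = 0.0323, edgeR), and 206 ± 14.8 CPM in wt21 replicates 5 to 8 and 123 ± 26.8 CPM in wt21 replicates 1 to 4 (adjusted p = 0.0131). HSC70-2 averaged 26.9 ± 4.02 CPM in wt col-0 replicates 5 to 8 and 18.3 ± 3.39 CPM in replicates 1 to 4 (adjusted p = 0.0373), and 33.0 ± 1.85 CPM in wt21 replicates 5 to 8 and 16.3 ± 3.37 CPM in wt21 replicates 1 to 4 (adjusted p = 5.14e-04). Over the 49 tested genes, 5 were higher and 1 lower in wt col-0 replicates 5 to 8 (background 4.84% higher and 5.06% lower), and 2 were higher and 1 lower in wt21 replicates 5 to 8 (background 2.11% and 2.04%). The factor gene HSFA4A fell to 0.688 ± 0.302 CPM in wt col-0 replicates 5 to 8, against 2.39 ± 0.455 CPM in replicates 1 to 4, and GOLS1, a galactinol synthase gene under heat shock factor control, fell to 1.66 ± 0.414 CPM in wt21 replicates 5 to 8, against 4.48 ± 1.85 CPM in wt21 replicates 1 to 4. Between the wild types, HSFC1 was the 1 gene called, higher in wt21 replicates 5 to 8 at 17.1 ± 2.50 CPM, against 8.33 ± 2.69 CPM in wt col-0 replicates 5 to 8 (adjusted p = 0.0375, edgeR). It was 1 of the 49 tested genes, beside 0.615% of all features called in that comparison. HSFC1 has fractional counts in 41 libraries, so its share is uncertain. The leaf photosynthesis markers moved with the replicate sets too, with 5 of 9 called lower in replicates 5 to 8 of wt col-0 and 4 of 9 in those of wt21, and their part was not tested.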

How the data were processed

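The authors deposited a table of unscaled estimated counts per feature, 1 column for each of the 44 libraries. The submitters' processing notes name TAIR10 and DESeq2. The aligner, the counter, the annotation, the use of strand and the use of molecular identifiers are not given in the sources used here. Per the labels' protocols, libraries were made from TRIzol extracts with Smart-seq3, a full-length cDNA method. Fractions made up 6.26% of the values above 0, and every value was rounded before testing. The 2 reporter rows, with 4.87e-05% of counts, were left out. No 2 replicates were identical (0 of 66 pairs within sets; chi-square per degree of freedom 2.84 to 128).

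Counts were tested in R 4.3.3 with edgeR 4.0.16 (filterByExpr, TMM factors 0.855 to 1.33, quasi-likelihood F test, 1 fit over the 11 sets), with Benjamini-Hochberg adjustment over 17557 features and calls at an adjusted p under 0.05. CPM are scaled by TMM, and SE were derived from the F statistic. Values are means ± SD. Limma 3.58.1 (voom) and DESeq2 1.42.0 were alternatives, and tables were made with Python 3.11.15 and pandas 2.3.3. On simulated counts of the ddm1 comparison over 17557 genes, 69 of 100 genes changed by 1 on the log2 scale and 93 of 100 changed by 2 were recovered, with 8 false calls. The changed genes were drawn at random from all levels, so these rates need not hold for the low-count genes described here. The numbers of the replicates did not pair libraries across groups (at most 1 of 4 pairs correlated over 0.1).

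The 10 genes and all gene lists were chosen with earlier results of these data known. By rule, the 10 genes, at most the 4 called list genes with the smallest p in a comparison, and the 5 features most like the family were named. Outside it, the 9 other heat-list genes called in ddm1, and PDIL1-1 in ddm1 and wt col-0, were named after their values were seen. So were HSC70-2 and HSC70-3 in wt col-0, the genes called by DESeq2 in ago groups and HSFB1. Coordinates, gene models and sequences are from RefSeq's TAIR10.1 assembly, matched by locus identifier. Totals, organelle share (2.29% to 15.5% of counts) and TMM factors varied between libraries, and low counts limit the precision of every gene described.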

Additional observations from a re-analysis of the deposited data

Results flagged for a closer look

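Libraries far from the others of their set on the log2 CPM scale were looked for in 62 combinations of gene and set, where chance alone flags about 1 in 20; 3 were found. HSP101 had 4.05 CPM (45 counts) in wt col-0 replicate 6, below the 6.19 to 6.60 CPM of the other libraries of replicates 5 to 8. HSP18.2 had 1.65 CPM (18 counts) in wt21 replicate 5, above the 0.8291 to 0.903 CPM of the others of its set. HSP22 had 0.734 CPM in ddm1 replicate 1, from 5 counts, above the 0.231 to 0.267 CPM of the other ddm1 libraries.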

How the results depend on the processing

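Counts of genes called, out of the 5 tested, stayed at 0 in the ago groups and wild-type comparisons under other scaling, no filter, other tools, other control sets and each library left out, with these exceptions. With wt col-0 replicates 5 to 8 as control, 1 gene (HSP101) was called in ago5 and 1 in ago4ago9. In wt21 replicates 5 to 8 against 1 to 4, 1 gene (HSP70) was called when only those groups were fitted. In ddm1 the count of 2 ranged from 0 to 2 as single libraries were left out (0 without ddm1 replicate 4, 1 without wt col-0 replicate 2 and 1 without wt col-0 replicate 4). In those fits HSP70 ran from 1.04 to 1.47 and HSP90.1 from 0.83 to 1.13 on the log2 scale; leaving out single libraries gave 0 to 0 calls in each other comparison. The 2 controls added after seeing the data gave log2 fold changes of 1.80 (adjusted p = 5.24e-08, edgeR) for HSP70 and 1.38 (5.77e-06) for HSP90.1 against the 6 ago groups, and 1.18 (4.13e-04) and 0.98 (2.22e-03) against all 16 wild-type libraries. No direction reversed among these counts and 2 genes. Over the 5 heat lists in ddm1, the 6 ago groups as control gave 19 higher and 2 lower. The replicate numbers do not pair libraries (correlations of same-numbered libraries -0.184 to 0.131); with a replicate block the log2 fold change in ddm1 was 1.22 for HSP70 (adjusted p = 0.0177) and 0.97 for HSP90.1 (adjusted p = 0.0429), and no count of calls changed. Counts per gene were low: HSFA2 had at most 32 in a library, and the 4 detected genes below the filter at most 9, so changes in them were hard to detect at this depth. The causes of these differences were not tested.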

Other observations

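HSFB1, a class B heat shock factor gene, was listed at 0 in 24 of 44 libraries and at 2.47 to 7.63 CPM in the 20 others. It was at 0 in 3 of 4 ddm1 libraries and in all 4 libraries of wt col-0 replicates 1 to 4, and no fold change is given for it.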
